A study of Mus musculus with 5 samples.

Results

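The genes described here encode the laminins, the proteins that tie laminin into a basement membrane, and the integrins, which are the cell-surface receptors for laminin and other matrix proteins. They are the 41 rows of the deposited expression table whose symbol is that of a laminin chain (11 genes), a nidogen (2), perlecan (Hspg2), agrin (Agrn) or an integrin alpha (18) or beta (8) subunit, out of 23857 rows in all. The rule uses names only and no measured value. All 41 reached the filter for testing, a TPM (an abundance corrected for gene length and scaled to the same total in every library) of at least 1 in at least 2 libraries.

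RNA was sequenced from YFP-positive stromal cells of the oviduct (fallopian tube) of young adult female mice, with 1 library per mouse. Both groups carried Pdgfra-Cre, a recombinase driven by the promoter of the mesenchymal gene Pdgfra, and R26Y, a Rosa26 reporter that makes recombined cells YFP-positive for sorting. The 2 control mice (mice 2 and 3) were labelled Pdgfra-Cre;R26Y, and the 3 experimental mice (mice 1, 2 and 3, called knockouts 1, 2 and 3 below) Pdgfra-Cre;Esr1(fl/fl);R26Y. The question is how loss of estrogen receptor alpha, which Esr1 encodes, alters RNA levels in this stroma. Recombination follows any cell with a history of Pdgfra promoter activity, so the sort is by lineage and not by current cell type.

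A laminin is a trimer of an alpha, a beta and a gamma chain that polymerizes into a sheet on the cell surface. Nidogens, perlecan and agrin connect that sheet to the collagen IV network and to growth factors. An integrin is a pair of an alpha and a beta subunit: some pairs bind laminin, some collagen, some the RGD motif of fibronectin and related proteins, and a further group is made by leukocytes. In the oviduct, basement membranes lie under the epithelium and around smooth muscle, vessels and nerves, and stromal fibroblasts make part of their components.

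The libraries were checked first. The controls had 83.3 and 77.6 TPM of Esr1, and knockouts 1, 2 and 3 had 28.9, 85.0 and 170 TPM. Only mouse 1 of the knockouts was thus below the controls. The library labels are therefore used as labels: "knockout" below means a library labelled Esr1 knockout. Values per gene do not show whether floxed exons were absent from the transcripts. Knockout mouse 1 also differed in composition from knockouts 2 and 3. The calls are given with and without mouse 1, as are values that it moves most. By the epithelial and immune sums below, knockouts 2 and 3 lay farther from the controls than mouse 1 did. Of all tested genes, 53.9%, 32.6% and 44.3% lay below both controls in knockouts 1, 2 and 3, and 20.8%, 47.5% and 40.9% lay above both. The fibroblast gene Pdgfra was between 165 and 298 TPM in the 5 libraries. The summed TPM of 8 stromal markers, Pdgfra among them, was 22040 and 17910 in controls and 15730, 11880 and 13310 in knockouts. Of these 8, 4 lay below both controls in every knockout and 0 above both. Over all tested genes the shares were 21.9% and 11.9%. Markers of other cell types were present as well, none of them at 0 in all libraries. The summed TPM of 11 epithelial markers was 3054 and 3323 in controls and 2137, 12020 and 13180 in knockouts 1, 2 and 3, most of it from Ovgp1, the oviduct-specific secreted glycoprotein. For 8 immune markers the sums were 2394 and 2988 in controls and 1945, 1206 and 769 in knockouts 1, 2 and 3, most of it from Lyz2. In bulk RNA, fewer cells of a type and less RNA per cell cannot be told apart.

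The promoter sequences of the lower members with the smallest p-values, Itgam and Itga2, and of Itgax, the neighbour of Itgam, are shown because the comparison below turns on the first and sets the others beside it. Each is the 250 bases before the RefSeq transcription start (GRCm38.p6), written 5′ to 3′ on the gene's strand: chr7:128062390-128062639 (+) for Itgam, chr7:128129300-128129549 (+) for Itgax and chr13:114932101-114932350 (-) for Itga2. Capitals mark GAGGAA on either strand, a core that the myeloid factor PU.1 and other ETS factors can bind.
Itgam: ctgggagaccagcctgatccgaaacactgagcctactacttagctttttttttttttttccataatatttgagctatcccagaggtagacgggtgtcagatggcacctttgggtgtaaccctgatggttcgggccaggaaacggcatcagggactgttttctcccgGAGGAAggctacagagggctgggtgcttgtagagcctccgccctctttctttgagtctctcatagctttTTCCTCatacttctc
Itgax: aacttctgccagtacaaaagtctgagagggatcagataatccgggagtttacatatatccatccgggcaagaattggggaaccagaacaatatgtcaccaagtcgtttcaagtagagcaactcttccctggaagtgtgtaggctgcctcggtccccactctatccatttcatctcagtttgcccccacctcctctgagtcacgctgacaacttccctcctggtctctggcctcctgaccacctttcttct
Itga2: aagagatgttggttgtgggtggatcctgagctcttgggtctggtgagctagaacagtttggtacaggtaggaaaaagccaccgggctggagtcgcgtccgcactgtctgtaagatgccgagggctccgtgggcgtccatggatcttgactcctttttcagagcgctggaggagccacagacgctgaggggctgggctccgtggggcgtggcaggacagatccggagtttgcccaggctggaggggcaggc
The Itgam window held GAGGAA 2 times, beginning 84 and 15 bases before the start, and the other windows held it 0 times. Of 32851 promoter windows in the table, 23.3% held these letters at least once. Among the 30 windows that the table has for 26 of the 41 genes, 14 did. They were those of Lama2, Lama5, Lamb1, Lamb2, Lamb3, Nid1, Itga11, Itga2b, Itga3, Itga5, Itgam, Itgav, Itgb1 and Itgb6. The full estrogen response element, GGTCA and TGACC with any 3 bases between them, was searched as well, on both strands. It was in 0 of those 30, against 0.0639% of all windows. Lamc3 and Lama1, the members with the smallest p-values of all, have no entry in that table.

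Across the 41 genes, limma fitted over 19292 genes called 0 members higher and 0 lower at an adjusted p under 0.05, against 0.0104% and 0.0156% of all tested genes (0.0259% in either direction). At an unadjusted p under 0.05, 2 members had higher and 12 had lower values in knockouts, which is 4.88% and 29.3% of the members beside 3.7% and 9.87% of all tested genes. In 4 members every knockout library lay above both controls, and in 15 every one lay below, or 9.76% and 36.6%, beside 11.9% and 21.9% of all tested genes. The median log2 fold change of the members was -0.36, and that of all tested genes -0.02. The median of the members was -0.19 without knockout mouse 1. Leaving out knockout mouse 1, limma called 3 members higher, Lamc3 and Lama1 among them, and 3 lower (Itgam, Itga2 and Itgb2). There the fit called 5.31% of all genes higher and 2.59% lower (7.89% in either direction). Every fit without mouse 1, here and below, rests on knockouts 2 and 3, whose Esr1 was not below that of the controls. With library weights limma called 2 members higher and 2 lower, beside 1.35% and 2.05% of all genes (3.4% in either direction). With the mouse number as a block it called 3 higher and 9 lower, beside 6.04% and 3.59% of all genes (9.63% in either direction), a fit in which mouse 1 has no partner. None of the differences below passed the test with all 5 libraries and equal weights. Exact permutation p-values are also given for the genes dwelt on. With 2 against 3 libraries they cannot fall below 0.1.

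The laminin alpha chains set where a laminin is made and which receptors it binds. Lama2, the chain of muscle and fibroblast laminins, was the most abundant of them, at 208 and 160 TPM in controls and 231, 191 and 145 TPM in knockouts 1, 2 and 3. Its groups overlapped, and its log2 fold change was 0.02 ± 0.24 (SE, limma adjusted p 0.968), with a sign that depends on the scaling. Lama4, a chain of vessel and mesenchymal laminins, was at 130 and 96.2 TPM in controls and at 84.5, 73.6 and 66.5 TPM in knockouts 1, 2 and 3. All 3 knockouts lay below both controls for Lama4, but the controls lay farther from each other than control mouse 3 from the lowest knockout (log2 fold change -0.58, standard error 0.20, limma adjusted p 0.31).

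Lama1, the chain of embryonic and some epithelial basement membranes, was at 4.45 and 6.94 TPM in controls and at 14.8, 20.1 and 16.6 TPM in knockouts 1, 2 and 3. Every knockout was far above both controls, which differed little from each other by comparison. The control mean was 5.70 ± 1.76 TPM (SD, n = 2) and the knockout mean 17.2 ± 2.67 TPM (SD, n = 3), a ratio of 3.02, and the log2 fold change was 1.46 ± 0.25 (SE, limma unadjusted p 0.000658, adjusted p 0.13, exact permutation p 0.1). Without knockout mouse 1 the log2 fold change was 1.55 with an adjusted p of 0.0264 in limma. The gene lies at chr17:67697259-67822647 (GRCm38, plus strand), and its exons overlap no other annotated gene.

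Lama5, the main alpha chain of adult epithelial and vessel basement membranes, was at 25.2 and 23.3 TPM in controls and at 12.2, 22.0 and 19.2 TPM in knockouts 1, 2 and 3. All 3 knockouts lay below both controls, mouse 1 farthest. The log2 fold change of Lama5 was -0.46 with mouse 1 and -0.23 without it. Lama3, a chain of the laminin that anchors epithelia, was at 13.3 and 11.5 TPM in controls and at 7.25, 17.6 and 20.4 TPM in knockouts 1, 2 and 3. It was thus below both controls in mouse 1 and above both in mice 2 and 3, as were most epithelial markers, of which 8 of 11 were below both controls in mouse 1 and 10 of 11 above both in each of mice 2 and 3. These counts stand beside the 53.9% of all tested genes below both controls in mouse 1 and the 47.5% and 40.9% above both in mice 2 and 3. Relative to Epcam, an epithelial adhesion molecule, Lama3 was at 0.176 and 0.116 in controls and at 0.102, 0.115 and 0.0939 in knockouts 1, 2 and 3. The part of epithelial RNA in Lama3 was not tested. The ratio of Lama1 to Lama5, taken within a library, was 0.177 and 0.298 in controls and 1.22, 0.910 and 0.866 in knockouts 1, 2 and 3.

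**Figure D1:**
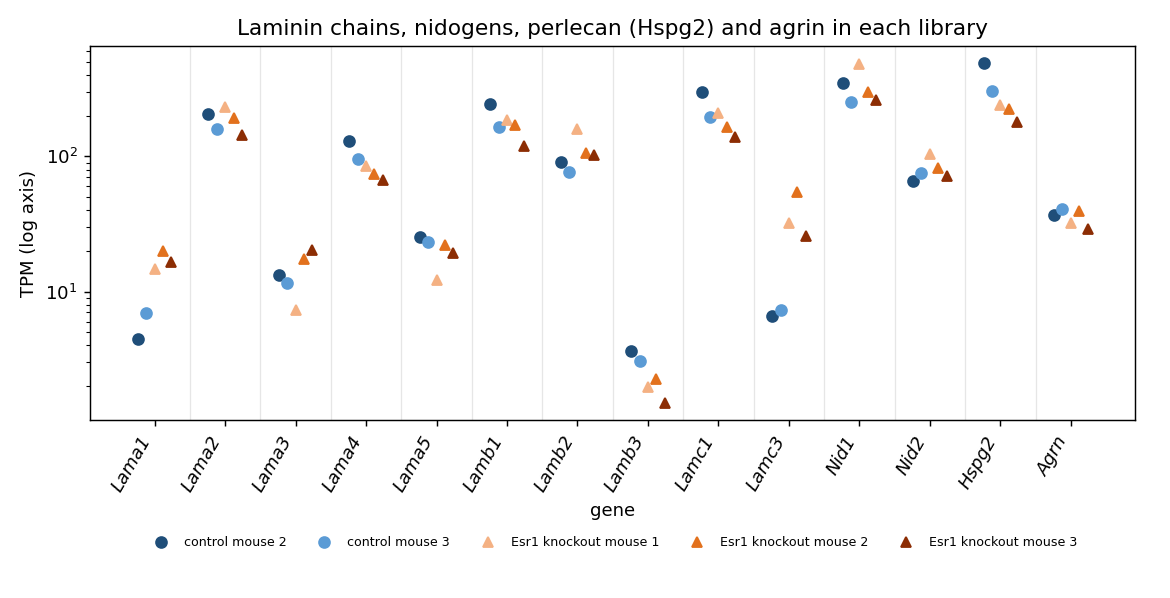
Abundance (TPM, log axis) of laminin chains, 2 nidogens, perlecan and agrin in each library, with circles for the 2 controls and triangles for the 3 libraries labelled Esr1 knockout. Lamc3 and Lama1 lie above both controls in all 3 knockouts and Hspg2 and Lama4 below, while Lama3 is high in knockout mice 2 and 3 and low in mouse 1.

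Among the beta chains, Lamb1, the widespread chain, was at 244 and 166 TPM in controls and at 187, 172 and 119 TPM in knockouts 1, 2 and 3. Its groups overlapped. Lamb2, the beta chain of synapses, kidney and muscle, was at 91.0 and 77.0 TPM in controls and at 160, 106 and 102 TPM in knockouts 1, 2 and 3. All knockouts were above both controls, with a log2 fold change of 0.51 ± 0.23 (SE, limma adjusted p 0.391). Without knockout mouse 1 it was 0.31. Lamb3, found in the anchoring laminin of epithelia, was low, between 1.49 and 3.61 TPM, and lay below both controls in all knockouts.

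Lamc1, the gamma chain of most laminins, was at 299 and 195 TPM in controls and at 210, 165 and 139 TPM in knockouts 1, 2 and 3. The controls spanned a wider range than the knockouts, and the log2 fold change of -0.52 (limma adjusted p 0.419) was -0.21 without control mouse 2 and -0.82 without control mouse 3.

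Lamc3, a gamma chain of restricted expression known from nerve, retina and the surface of ciliated epithelia, showed the largest difference of the 41 genes. It was at 6.62 and 7.34 TPM in controls and at 32.1, 54.5 and 25.6 TPM in knockouts 1, 2 and 3. The controls were close to each other, and the lowest knockout was far above both. The control mean was 6.98 ± 0.51 TPM (SD, n = 2) and the knockout mean 37.4 ± 15.1 TPM (SD, n = 3), a ratio of 5.36. The log2 fold change was 2.20 ± 0.32 (SE, limma unadjusted p 0.000238, adjusted p 0.115, exact permutation p 0.1). Leaving out any 1 library kept it between 1.90 and 2.43, and it passed the test without knockout mouse 1 (limma adjusted p 0.0243). Mouse 1 was the only knockout with Esr1 below the controls. The ratio of Lamc3 to Epcam was 0.0875 and 0.0739 in controls and 0.454, 0.358 and 0.117 in knockouts 1, 2 and 3. The part of epithelial RNA in Lamc3 was not tested. The gene lies at chr2:31887291-31946539 (GRCm38, plus strand). Its exons overlap Gm13441 on the opposite strand, and whether the authors counted by strand is not given in the sources used here.

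Shares within a class of chain do not depend on how a library is scaled. This measure was chosen after the values had been seen. Summed over each class, alpha chains came to between 267 and 380 TPM and beta chains to between 222 and 348 TPM, in the 5 libraries, and the groups overlapped for each sum. Lamb2 made up 26.9% and 31.2% of beta-chain TPM in controls and 45.9%, 37.9% and 45.8% in knockouts 1, 2 and 3. The share was higher in every knockout than in either control. Lama1 made up 1.17% and 2.33% of alpha-chain TPM in controls and 4.24%, 6.19% and 6.22% in knockouts 1, 2 and 3. Lama4 made up 34.1% and 32.2% in controls and 24.2%, 22.7% and 24.9% in knockouts 1, 2 and 3, with the highest knockout well under the lower control. For each of these 3 shares the exact permutation p was 0.1, the smallest the design allows, and it was also 0.1 for the lower shares of Lamb1 and Lamb3. For the alpha and beta chains 8 shares were compared. Shares within the gamma chains, the integrin alpha and beta subunits and the collagen IV chains were also computed. Shares within a class add up to the whole, so a higher one goes with lower ones among the rest. Lamc3 was set against Lamc1, the main gamma chain: this ratio was 0.0222 and 0.0376 in controls and 0.153, 0.331 and 0.184 in knockouts 1, 2 and 3, again without overlap (exact permutation p 0.1).

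**Figure D2:**
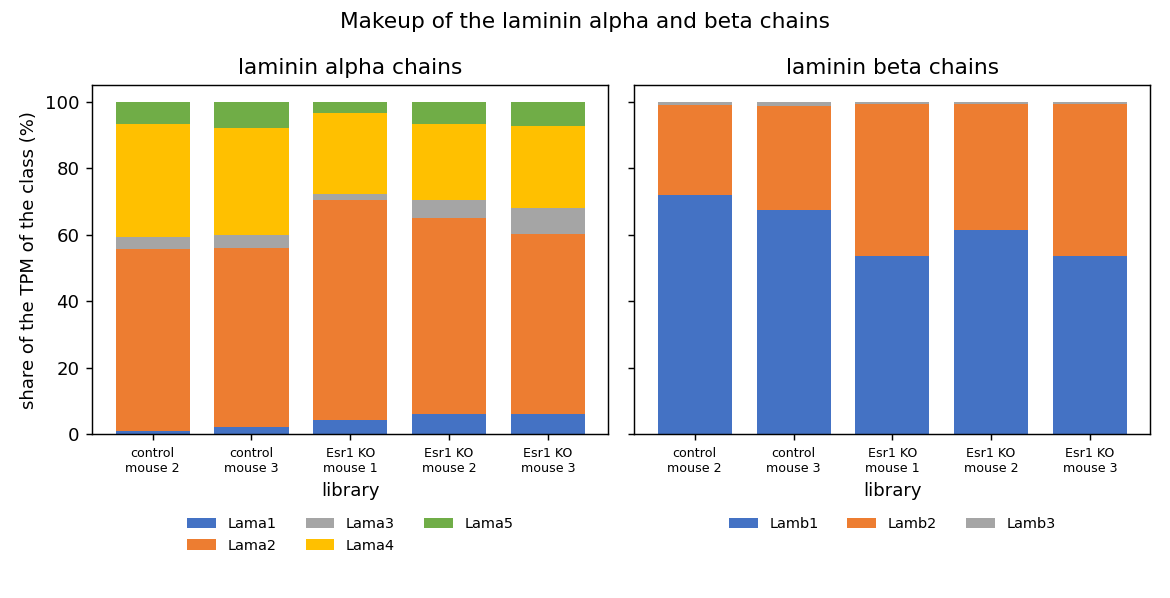
Share of each gene in the summed TPM of laminin alpha and beta chains (stacked bars adding to 100% in each library). In the 3 libraries labelled Esr1 knockout (Esr1 KO), Lamb2 takes 37.9% to 45.9% of the beta chains, against at most 31.2% in controls, and Lama4 at most 24.9% of the alpha chains, against at least 32.2%.

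Of the linking proteins, perlecan is a large heparan sulfate proteoglycan that binds growth factors and laminin. Hspg2 was at 492 and 307 TPM in controls and at 239, 224 and 180 TPM in knockouts 1, 2 and 3. All 3 knockouts were below both controls, and the controls differed widely. The control mean was 399 ± 131 TPM (SD, n = 2) and the knockout mean 214 ± 30.3 TPM (SD, n = 3), and the log2 fold change was -0.86 ± 0.25 (SE, limma unadjusted p 0.0107, adjusted p 0.243). Without control mouse 2 it was -0.52, and without control mouse 3 -1.20.

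Nid1, the main nidogen, was among the most abundant of the genes, at 349 and 253 TPM in controls and 486, 302 and 261 TPM in knockouts 1, 2 and 3. It overlapped between groups, and mouse 1 alone stood above the controls. Its log2 fold change was 0.18, and -0.08 without mouse 1. Nid2 was at 65.6 and 75.5 TPM in controls and at 104, 81.8 and 71.1 TPM in knockouts 1, 2 and 3, again overlapping. Agrn, a proteoglycan that links laminin to dystroglycan, was between 29.2 and 41.2 TPM in all libraries, with a log2 fold change of -0.22 and a standard error of 0.19. Hspg2 over Nid1 within a library was 1.41 and 1.21 in controls and 0.491, 0.743 and 0.691 in knockouts 1, 2 and 3. The groups did not overlap in this ratio (exact permutation p 0.1). It is formed from the values already given for both genes and is not a separate result.

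Integrins were dominated by the beta subunit Itgb1, the partner of most alpha subunits, at 324 and 284 TPM in controls and 291, 287 and 252 TPM in knockouts 1, 2 and 3. Its groups overlapped, and its log2 fold change was -0.14 ± 0.17 (SE). Next came Itgb5, a partner of Itgav, at 113 and 112 TPM in controls and 132, 116 and 101 TPM in knockouts 1, 2 and 3, and Itgav itself, at 98.5 and 91.5 TPM in controls and 88.7, 130 and 123 TPM in knockouts 1, 2 and 3. Neither separated the groups. The summed alpha TPM was 434 and 430.4 in controls and 329, 383 and 333 in knockouts 1, 2 and 3, below both controls in each (exact permutation p 0.2). This sum includes the leukocyte subunits. Among them, Itgam had a mean of 66.4 TPM in controls and 23.4 TPM in knockouts, where the mean sum was 432 and 348 TPM. Without the leukocyte alpha subunits the sum in knockout mouse 2 lay above both controls, so the groups did not separate. Of the 26 integrin genes 22 had a negative and 4 a positive log2 fold change, with a median of -0.50. Of all 19292 tested genes, 10071 had a negative and 9221 a positive one, with a median of -0.02. The 7 leukocyte genes were all among the 22 integrin genes with a negative one.

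Laminin-binding alpha subunits are Itga3, Itga6 and Itga7, and Itgb4 pairs with Itga6 in epithelia. Itga7, a receptor of muscle, was at 13.0 and 9.37 TPM in controls and at 3.92, 6.19 and 3.64 TPM in knockouts 1, 2 and 3. All 3 knockouts lay below both controls, with a log2 fold change of -1.14 and a standard error of 0.28 (limma unadjusted p 0.00533, adjusted p 0.204, exact permutation p 0.1). Of 8 smooth muscle markers, 2 were below both controls in all knockouts, a share close to the 21.9% of all tested genes. The summed TPM of the 8 was 636 and 433 in controls and 534, 479 and 467 in knockouts 1, 2 and 3. The part of smooth muscle RNA in Itga7 was not tested. Itga6 was at 46.2 and 44.3 TPM in controls and 32.8, 47.4 and 53.1 TPM in knockouts 1, 2 and 3. Itga3 was at 28.7 and 30.3 TPM in controls and 15.9, 27.0 and 26.4 TPM in knockouts 1, 2 and 3, below both controls in each. Itgb4 was at 15.7 and 12.8 TPM in controls and 6.92, 13.4 and 14.8 TPM in knockouts 1, 2 and 3. Each of Itga6, Itga3 and Itgb4 was lowest in knockout mouse 1, as were 8 of the 11 epithelial markers. Without mouse 1 the log2 fold change of Itga3 moved from -0.37 to -0.14 and that of Itgb4 from -0.32 to -0.01.

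Collagen-binding subunits are Itga1, Itga2, Itga10 and Itga11, all partners of Itgb1. Itga2, the receptor of epithelia and platelets, was at 9.90 and 12.1 TPM in controls and at 3.71, 4.38 and 3.54 TPM in knockouts 1, 2 and 3. The 3 knockouts were tightly grouped, far below the lower control. The control mean was 10.99 ± 1.53 TPM (SD, n = 2) and the knockout mean 3.88 ± 0.443 TPM (SD, n = 3), a ratio of control to knockout of 2.83. The log2 fold change was -1.29 ± 0.22 (SE, limma unadjusted p 0.000728, adjusted p 0.131, exact permutation p 0.1), and -1.27 with an adjusted p of 0.0325 in limma without knockout mouse 1. The ratio of Itga2 to Epcam was 0.131 and 0.122 in controls and 0.0525, 0.0288 and 0.0163 in knockouts 1, 2 and 3. Of the platelet markers 3 of 4 were below both controls in all knockouts, beside 21.9% of all tested genes. The summed TPM of the 4 was 86.0 and 91.1 in controls and 58.2, 41.6 and 42.6 in knockouts 1, 2 and 3, most of it from Pf4. The fourth platelet marker, Gp1bb, was at 1.85 and 1.82 TPM in controls and 0.836, 5.65 and 3.74 TPM in knockouts 1, 2 and 3. Of the 4 mesothelial markers 3 were below both controls too (summed TPM of the 4, 567 and 485 against 306, 409 and 422), beside the same 21.9%. The fourth mesothelial marker, Wt1, lay above both controls in every knockout, at 141 and 146 TPM in controls and 175, 218 and 223 TPM in knockouts 1, 2 and 3. The part of RNA from these cell types in Itga2 was not tested.

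Itga1, which lies 21.0 kb from Itga2 on chromosome 13 with 0 protein-coding genes between them, was at 9.59 and 12.9 TPM in controls and 9.30, 13.6 and 9.86 TPM in knockouts 1, 2 and 3. It overlapped completely, with a log2 fold change of -0.04 and a standard error of 0.25. Itga11, the fibroblast receptor for fibrillar collagen, was at 24.4 and 18.6 TPM in controls and at 15.4, 15.1 and 13.6 TPM in knockouts 1, 2 and 3. The knockouts were close together and below both controls (log2 fold change -0.51, standard error 0.20, limma adjusted p 0.345). Itga10 stayed between 2.71 and 4.20 TPM.

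RGD-binding integrins recognise fibronectin, vitronectin and the latent form of TGF-beta. Itga5, the fibronectin receptor subunit, was at 51.9 and 58.1 TPM in controls and at 47.1, 36.8 and 26.2 TPM in knockouts 1, 2 and 3, below both controls in each (log2 fold change -0.61, standard error 0.26, limma adjusted p 0.368). Itga8, a receptor of smooth muscle and mesenchyme for nephronectin, was at 7.993 and 8.997 TPM in controls and 8.52, 13.9 and 11.5 TPM in knockouts 1, 2 and 3. Mice 2 and 3 were above both controls for Itga8, and mouse 1 lay between them. Among the beta partners, Itgb3 was between 10.3 and 19.7 TPM and Itgb8, an activator of latent TGF-beta, between 14.4 and 18.9 TPM, both with overlapping groups. Itgb6, an epithelial activator of latent TGF-beta, was low, between 1.49 and 5.14 TPM, and lay below both controls in every knockout. Itga2b, the platelet subunit, was at 8.51 and 6.11 TPM in controls and 3.24, 5.23 and 4.29 TPM in knockouts 1, 2 and 3, below both controls in each.

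Itga4 and Itga9 are related subunits that bind VCAM-1 and tenascin, among other ligands. Their values lay on opposite sides of the controls. Itga4, common in leukocytes, was at 18.7 and 18.1 TPM in controls and at 13.7, 10.4 and 6.22 TPM in knockouts 1, 2 and 3 (log2 fold change -0.86, limma adjusted p 0.327). Itga9, of smooth muscle, epithelium and lymphatic vessels, was at 12.5 and 16.9 TPM in controls and at 17.3, 26.4 and 20.4 TPM in knockouts 1, 2 and 3 (log2 fold change 0.51, limma adjusted p 0.401). Every knockout was below both controls for the first and above both for the second, though by little in mouse 1 for Itga9.

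**Figure D3:**
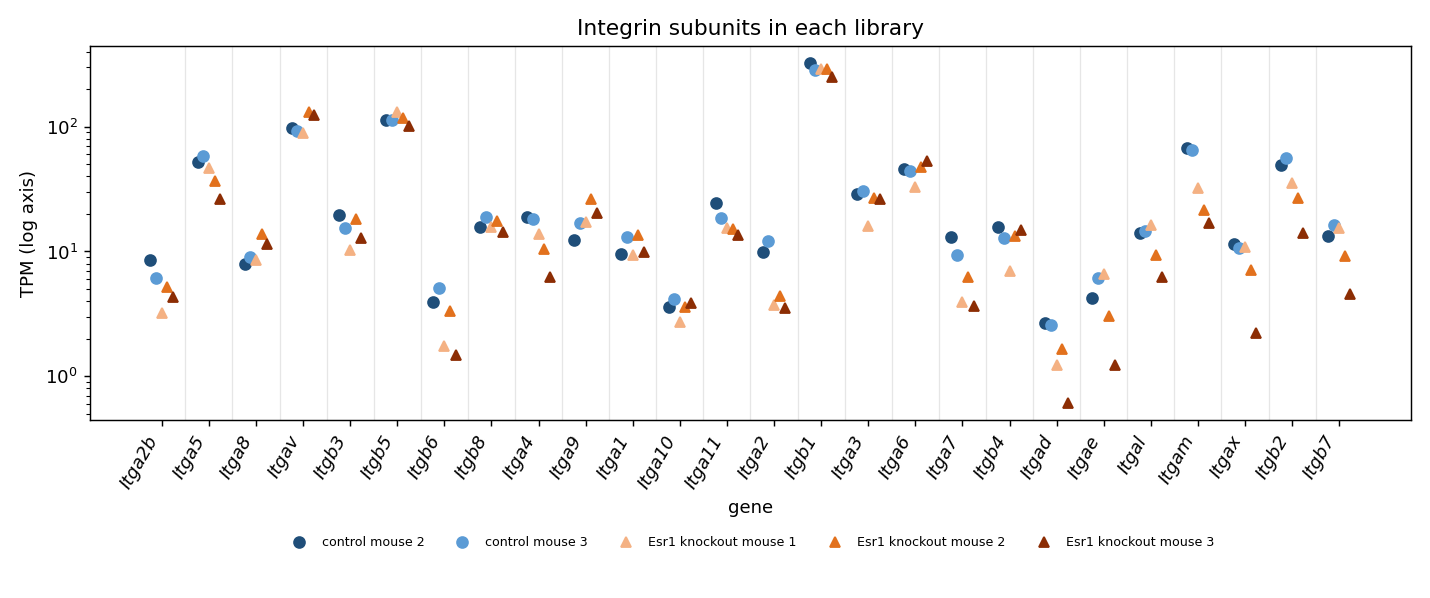
Abundance (TPM, log axis) of the 26 integrin subunits in each library, with circles for controls and triangles for libraries labelled Esr1 knockout, ordered from RGD-binding (left) to leukocyte subunits (right). Itgb1 stays between 252 and 324 TPM, Itga2 and Itga7 lie below both controls in every knockout, and the leukocyte subunits are lowest in knockout mouse 3.

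Leukocyte integrins carry blood-derived cells across vessel walls and bind ICAM proteins and complement. Itgam, the alpha subunit of macrophages and neutrophils, was at 67.9 and 64.9 TPM in controls and at 32.0, 21.4 and 16.8 TPM in knockouts 1, 2 and 3. All 3 knockouts were far below the controls, which nearly coincided, with a control mean of 66.4 ± 2.12 TPM (SD, n = 2) and a knockout mean of 23.4 ± 7.78 TPM (SD, n = 3), a ratio of control to knockout of 2.83. The log2 fold change was -1.51 ± 0.27 (SE, limma unadjusted p 0.00084, adjusted p 0.137, exact permutation p 0.1), and -1.75 with an adjusted p of 0.0129 in limma without knockout mouse 1. Its beta partner Itgb2 was at 49.3 and 56.6 TPM in controls and at 35.7, 26.7 and 14.0 TPM in knockouts 1, 2 and 3 (log2 fold change -1.12, limma adjusted p 0.291).

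In knockout mouse 1 most other leukocyte alpha subunits were near the controls. Itgax, of dendritic cells and some macrophages, was at 11.4 and 10.7 TPM in controls and at 10.9, 7.10 and 2.22 TPM in knockouts 1, 2 and 3. Itgal, of lymphocytes, was at 14.1 and 14.7 TPM in controls and at 16.3, 9.34 and 6.24 TPM in knockouts 1, 2 and 3. For both, mouse 1 was at or above the level of the controls and mice 2 and 3 were below. Itgb7, the partner of Itga4 and Itgae in lymphocytes, was at 13.4 and 16.4 TPM in controls and at 15.4, 9.19 and 4.53 TPM in knockouts 1, 2 and 3. Itgae, the receptor of intraepithelial T cells for E-cadherin, was at 4.21 and 6.15 TPM in controls and at 6.57, 3.03 and 1.24 TPM in knockouts 1, 2 and 3. Itgad was low, between 0.609 and 2.69 TPM, and lay below both controls in every knockout, mouse 1 included. Itgam, Itgax and Itgad lie in a row on chromosome 7, with gaps of 11.05 and 3.72 kb, and an exon of Itgam is shared in the annotation with Gm49368 on the same strand, so their reads can be split.

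By summed TPM, the immune markers and these subunits were both lowest in knockout mice 2 and 3. All 7 leukocyte genes were below both controls in each of knockout mice 2 and 3, where 32.6% and 44.3% of all tested genes were. In mouse 1 it was 3 of 7, beside 53.9% of all tested genes, while of the 8 immune markers 7 were below in mouse 2, 8 in mouse 3 and 6 in mouse 1. The other 2 markers lay above both controls in mouse 1. Cd3e was at 35.9 TPM there against 9.76 and 13.7 TPM in controls, and Cd52 at 344 TPM against 317 and 282 TPM. Summed TPM of the 7 leukocyte genes was 163 and 172 in controls and 118, 78.4 and 45.6 in knockouts 1, 2 and 3. Relative to Ptprc, the pan-leukocyte phosphatase CD45, Itgam was at 1.24 and 1.28 in controls and at 0.688, 0.705 and 1.08 in knockouts 1, 2 and 3. Itgb2 over Ptprc was 0.902 and 1.11 in controls and 0.767, 0.876 and 0.896 in knockouts, and Itgam over the macrophage receptor gene Csf1r was 0.699 and 0.679 in controls and 0.375, 0.485 and 0.476 in knockouts. The ratio to Csf1r was thus lower in all 3 knockouts than in either control (exact permutation p 0.1). The part of leukocyte RNA in the lower integrin values was not tested. Without these 7 genes the median log2 fold change of the remaining 34 members was -0.19, with 2 at an unadjusted p under 0.05 above and 9 below, or 5.88% and 26.5%, beside 3.7% and 9.87% of all tested genes.

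**Figure D4:**
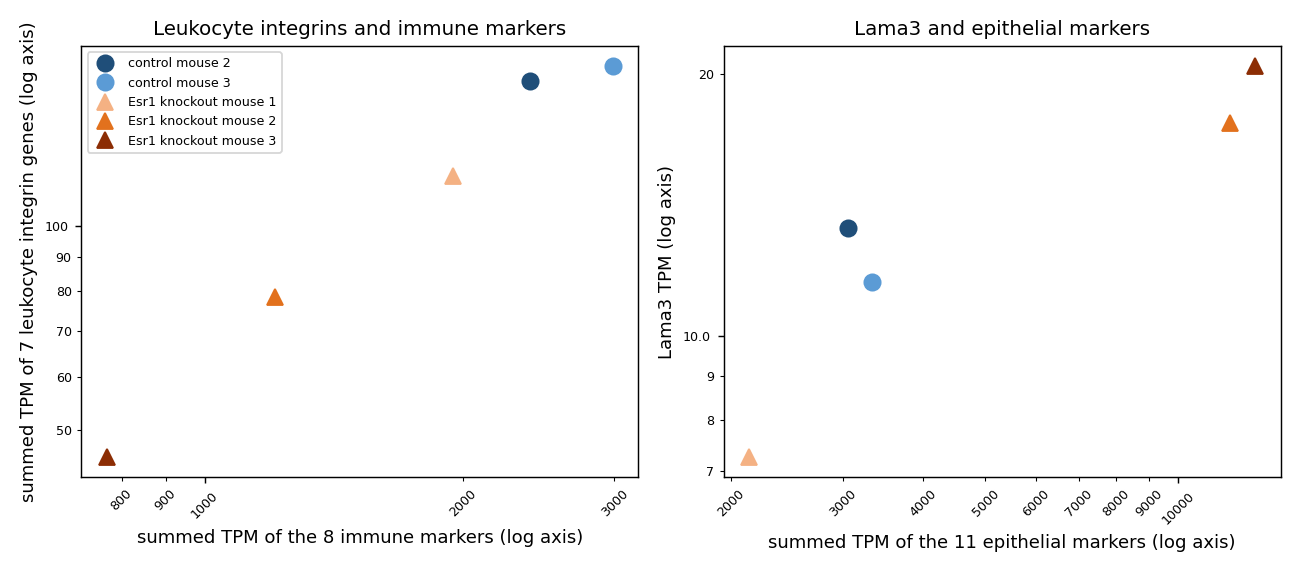
Left, summed TPM of the 7 leukocyte integrin genes against that of 8 immune markers. Right, Lama3 TPM against the summed TPM of 11 epithelial markers. Each point is a library (circles controls, triangles labelled Esr1 knockout) and all axes are logarithmic. Knockout mice 2 and 3 are lowest on the left (78.4 and 45.6 TPM) and highest on the right (17.6 and 20.4 TPM), and knockout mouse 1 lies nearer the controls on the left and lowest on the right (7.25 TPM).

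Other genes of basement membranes were read from a list of 25, of which limma called 0 at an adjusted p under 0.05. At an unadjusted p under 0.05, 6 had higher and 5 had lower values in knockouts, or 24% and 20% of the list, beside 3.7% and 9.87% of all tested genes. The median log2 fold change over the list was -0.15. The higher ones with the largest differences were Frem1, a matrix protein of the epithelial and mesenchymal boundary, Egflam (pikachurin), which binds dystroglycan, Smoc2, a calcium-binding matrix protein, and Col4a4, a collagen IV chain. Frem1 was at 3.00 and 4.75 TPM in controls and at 16.1, 26.6 and 21.3 TPM in knockouts 1, 2 and 3 (log2 fold change 2.19, limma adjusted p 0.0858). Egflam was at 18.4 and 22.8 TPM in controls and at 56.4, 60.8 and 53.9 TPM in knockouts 1, 2 and 3 (log2 fold change 1.43, limma adjusted p 0.0858). Both lay far above the controls in every knockout, as Lamc3 and Lama1 did. Smoc2 and Col4a4 had log2 fold changes of 1.37 and 1.07. Npnt, which encodes nephronectin, the ligand of Itga8, was picked out with its values known. It was at 14.0 and 13.3 TPM in controls and at 17.5, 21.6 and 28.8 TPM in knockouts 1, 2 and 3 (log2 fold change 0.66, limma adjusted p 0.327).

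The lower ones were led by Loxl2, which crosslinks collagen IV, Bcam, a receptor for Lama5, Hmcn2, a hemicentin, and Col18a1, a basement membrane collagen. Their log2 fold changes were -0.77, -0.72, -0.66 and -0.64. Bcam was at 166 and 160 TPM in controls and at 77.9, 118 and 104 TPM in knockouts 1, 2 and 3, and Col18a1 at 87.6 and 75.4 TPM in controls and 57.4, 53.9 and 45.1 TPM in knockouts, without overlap for either. Dag1, the gene of the laminin receptor dystroglycan, also picked out with its values known, was at 144 and 134 TPM in controls and at 154, 196 and 181 TPM in knockouts 1, 2 and 3.

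The adaptors that link integrins to actin had a median log2 fold change of 0.04 over 22 genes, with 0 called by limma. At an unadjusted p under 0.05 there was 1 higher (4.55%, beside 3.7% of all tested genes), Fermt1, the kindlin of epithelia. Fermt1 was at 6.75 and 6.60 TPM in controls and at 7.89, 17.1 and 25.9 TPM in knockouts 1, 2 and 3, with the epithelial markers high in the same mice 2 and 3. Tln1 (talin) and Ilk (integrin-linked kinase), chosen as core adaptors with their values known, stayed between 92.2 and 116 TPM and between 187 and 229.5 TPM.

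Over 12 genes of other integrin ligands the median log2 fold change was -0.82, with 0 called at an adjusted p under 0.05 in limma. At an unadjusted p under 0.05, 2 were higher and 8 lower, or 16.7% and 66.7%, beside 3.7% and 9.87% of all tested genes. The lower ones included the leukocyte ligands Icam1, Icam2 and Vcam1 (log2 fold changes -1.15, -1.16 and -1.16) and Spp1, osteopontin (-1.43). The groups of Spp1 overlapped, with 12.5 TPM in knockout mouse 1 and 12.3 TPM in control mouse 2. Vcam1, bound by Itga4 and Itga9, was at 53.1 and 46.6 TPM in controls and at 26.5, 26.9 and 14.2 TPM in knockouts 1, 2 and 3. All of its knockout values lay below both controls. The higher ones were Ccn2, a secreted matricellular protein, and Tnc, tenascin-C, a ligand of Itga9. Tnc was at 5.29 and 6.68 TPM in controls and at 9.18, 19.1 and 13.4 TPM in knockouts 1, 2 and 3 (log2 fold change 1.05, limma adjusted p 0.261).

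**Figure D5:**
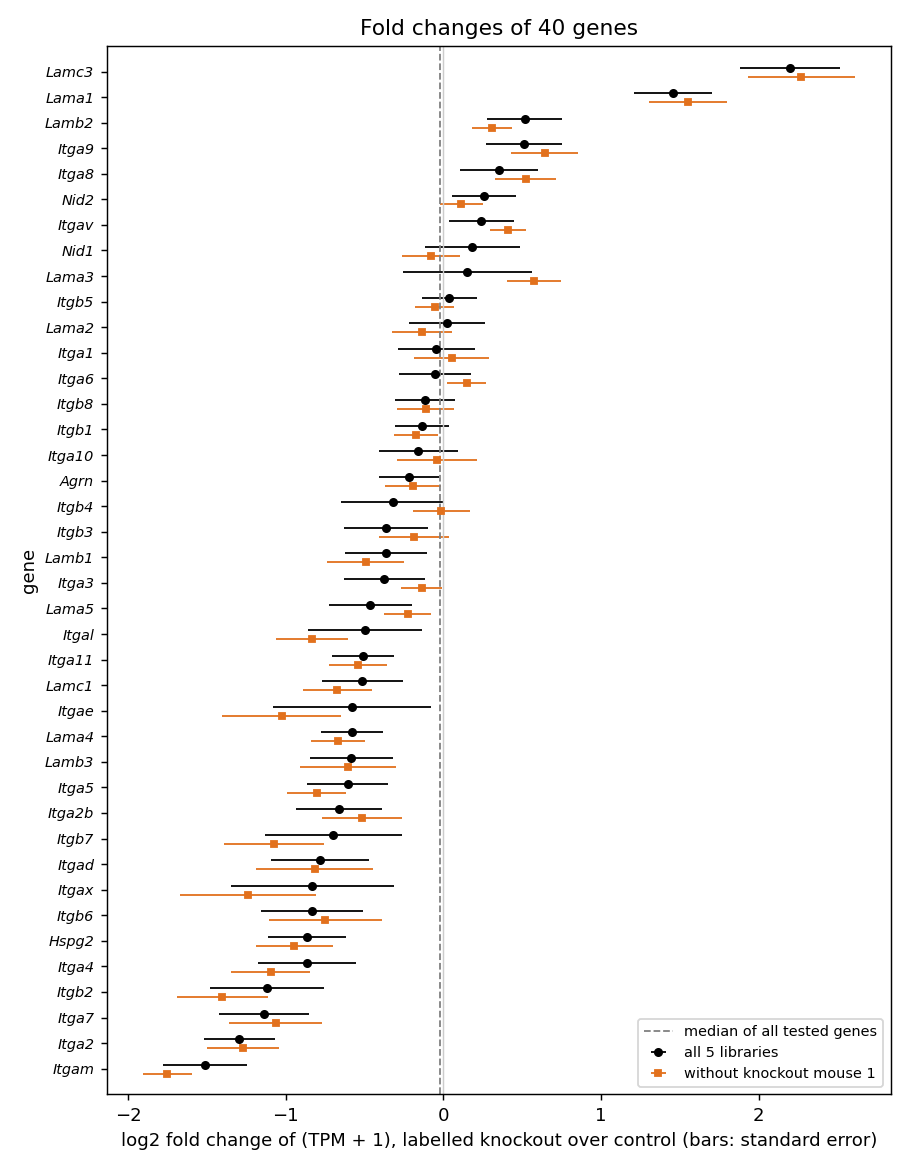
Log2 fold change of (TPM + 1), libraries labelled Esr1 knockout over controls, for 40 genes, with standard errors as bars, from limma on all 5 libraries (black circles) and without knockout mouse 1 (orange squares). The dashed line is the median of all 19292 tested genes (-0.02). Lamc3 (2.20) and Lama1 (1.46) lie farthest to the right, Itgam (-1.51) and Itga2 (-1.29) farthest to the left, and Lama3 moves to the right when mouse 1 is left out.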

How the data were processed

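Per the labels' protocols, total RNA of sorted YFP-positive cells was made into libraries with a low-input SMARTer mRNA kit. The deposited values are TPM per gene, scaled by the authors to a sum of 1000000 in each of the 5 libraries. The table's own name says that STAR was used, and the submitters' processing notes name the build mm10. The STAR version, the gene counter, the annotation and any use of strand are not given in the sources used here. TPM keeps no total depth, so no counting interval is given. Between 15841 and 19432 genes reached 1 TPM per library.

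The test was limma 3.58.1 (R 4.3.3) on log2(TPM + 1), with a mean-variance trend and genotype as the only term, two-sided, over the 19292 genes with at least 1 TPM in at least 2 libraries. Benjamini-Hochberg adjustment ran over all of them, with a threshold of 0.05. Fold changes on this scale understate those of low genes. The fit was tested on simulated data. Exact permutation tests ran over the 10 assignments of the 5 libraries. Members are given in every library where either group's mean was at least 5 TPM, except Agrn, Itgb3 and Itgb8, which are given as ranges. Genes of other lists are named at an unadjusted limma p under 0.05, up to 4 in each direction, apart from those said to be picked out. The p-values measure the spread between these libraries, 1 per mouse.

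One gene of the set is not reported here, though it is in the counts over all members. The members and lists were chosen with earlier results of these data known. Coordinates are from GENCODE M21, and promoters from RefSeq (GRCm38.p6). In that annotation 14 of the 41 genes share exon sequence with another gene. Python 3.11.15 with pandas 2.3.3 was used for the remaining steps. Alternatives covered pseudocount, filter, scaling, variance model, library weights, mouse number as a block, threshold and leaving out each library.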

Additional observations from a re-analysis of the deposited data

How the results depend on the processing

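The count of members called by limma, 0 higher and 0 lower, was the same with other pseudocounts, filters and scalings, without Rpph1 and Rn45s, with eBayes without trend or robust, and at an adjusted p of 0.1. Library weights called 2 higher (Lamc3, Lama1) and 2 lower (Itgam, Itga2). Leaving out 1 library at a time, the higher count and the lower count each ranged from 0 to 3, and every such call came without knockout mouse 1. Where 1 control was left, it was assumed to vary like the knockouts.

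With the mouse number as a replicate block, 3 members were called higher and 9 lower (Itgam, Itga2, Itgb2, Hspg2, Lamc1, Lama4, Itga4, Itga5 and Itga7), where 9.63% of all genes were called. Knockout mouse 1 is unpaired there, which leaves mice 2 and 3. Deviations of same-numbered mice from their group means correlated at -0.06 and -0.072 over genes, and nothing beyond the number ties them.

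Of the alternative values for single members, 545 kept their direction and side of the threshold, 22 passed it and 24 changed sign. The sign changes were in genes close to 0. With the block they were Lama2 (-0.13), Nid1 (-0.080), Itga1 (0.053), Itga6 (0.15) and Itgb5 (-0.055). Library weights gave Lama2 (-0.00059), Itga1 (0.11) and Itga6 (0.047), quantile normalization Lama2 (-0.078) and Itgb5 (-0.11), and leaving out Rpph1 and Rn45s Lama2 (-0.038) and Itgb5 (-0.021). Without 1 library at a time, Lama2 ranged from -0.16 to 0.21, Lama3 from -0.11 to 0.58, Nid1 from -0.080 to 0.41, Itga1 from -0.24 to 0.15, Itga6 from -0.19 to 0.15, Itgb5 from -0.055 to 0.14 and Itgb8 from -0.25 to 0.012. The median of the laminin chains (0.02) ranged from -0.16 to 0.21, that of integrin alpha subunits (-0.54) from -0.67 to -0.34 and that of integrin beta subunits (-0.34) from -0.50 to -0.18. With library weights the median of beta subunits was -0.15, and with a pseudocount of 5 that of alpha subunits was -0.34. The cause was not tested.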

Other observations

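Collagen IV, the other network of the basement membrane, was examined as the laminins were. Its chains Col4a1 and Col4a2 pair with each other in nearly all tissues, and the remaining chains form more restricted trimers. Col4a1 made up 49.3% and 49.8% of collagen IV TPM in controls and 37.4%, 45.4% and 40.3% in knockouts 1, 2 and 3. Col4a5 made up 10.3% and 9.40% in controls and 17.7%, 11.1% and 17.2% in knockouts, and Col4a6 9.80% and 10.8% in controls and 20.4%, 11.3% and 15.6% in knockouts. The shares of Col4a1 and Col4a2 were below both controls in every knockout and those of the other 4 chains above both. The margin was small in mouse 2 for Col4a5 and Col4a6. For Col4a3 there was almost none in knockout mouse 3, at 1.169% against 1.164% in control mouse 2. In TPM the groups of Col4a3 overlapped. Exact permutation p was 0.1 for Col4a2 and 0.2 for the others. The summed TPM of the 6 chains was 590 and 644 in controls and 741, 639 and 464 in knockouts 1, 2 and 3. These shares were computed after the values had been seen.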
